A study of Rattus norvegicus with 6 samples.

Results

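Transcripts of 4 transcription factor genes were followed in primary rat BMSCs, bone marrow stromal cells, which adhere in culture and can form bone, fat and cartilage. They were Hif1a, Epas1 and Arnt, which encode subunits of the hypoxia-inducible factors (HIFs), and Sp1, which encodes the factor named in the title of the series. The 4 genes were taken by their rat Ensembl IDs from a deposited table of 32883 genes. They are ENSRNOG00000008292 (Hif1a), ENSRNOG00000021318 (Epas1), ENSRNOG00000031174 (Arnt) and ENSRNOG00000014084 (Sp1). These pairs of ID and symbol came with the choice of the genes and could not be checked, because the deposited table holds IDs alone and the RefSeq gene table at hand gives an Ensembl ID for 0 of its 47357 genes. All 4 IDs were in the table, and all 4 were among the 12702 genes that passed the filter on low counts.

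HIFs bind DNA as pairs of an alpha and a beta subunit. Hif1a and Epas1 encode the related alpha subunits HIF-1α and HIF-2α, which oxygen-dependent prolyl hydroxylases mark for degradation when oxygen is plentiful, so that oxygen acts first on the protein and not on the transcript. Arnt encodes the beta subunit, HIF-1β, which does not share this oxygen-dependent degradation and also pairs with the aryl hydrocarbon receptor. SP1 is a widely expressed zinc finger factor that binds GC-rich promoter sequences known as GC boxes. Only RNA was measured here.

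Messenger RNA was sequenced from 3 libraries of cells held for 7 days at 1% O2 in a tri-gas incubator and from 3 control libraries, also of day 7. The labels call the control condition normal and give it no oxygen percentage. The medium of both groups was alpha-MEM supplemented with fetal bovine serum. The labels name no strain, age or sex of the rats. Nothing in them says that libraries of a group stem from separate rats or dishes, so the p-values may reflect technical spread alone. They also name no culture or preparation batch, and a batch that follows the groups cannot be told apart from oxygen. The extraction protocol speaks of muscle, whereas every other label gives BMSCs. Marker genes of stromal, muscle or other cells were not examined, since the IDs could not be paired with symbols.

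The control libraries held 13273781 to 13361629 assigned reads and the 1% O2 libraries 14879124 to 18533675. Control replicate 2 stood apart from the other controls. The mean chi-square per gene between its counts and theirs, which is 1 under sampling noise alone, was 6.48 and 6.57, against 1.51 between Control replicates 1 and 3 and 1.76 to 2.23 within the 1% O2 group. The 4 genes shared in this to different degrees. On the log2 CPM scale, Control replicate 2 minus the mean of the other controls was -0.16 for Hif1a, -0.24 for Arnt and -0.23 for Sp1. Values lower still were found for 23.4%, 15.4% and 16.5% of tested genes, respectively. For Epas1 the difference was only -0.01, close to the median of 0.01 over all tested genes. The log2 fold change of each of the 4 genes is therefore given with and without this library. Spreads among controls and count ratios are given with it included.

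Epas1 was lower and Sp1 was higher after 7 days at 1% O2, whereas Hif1a and Arnt did not pass the test. The Epas1 transcript fell 1.91-fold and the Sp1 transcript rose 1.39-fold. The estimated changes were 1.03-fold for Hif1a and 1.11-fold for Arnt. The counts were compared by edgeR's quasi-likelihood test fitted over all 12702 genes (two-sided, n = 3 and 3), with Benjamini-Hochberg adjustment over all of them and a threshold of 0.05. Levels are given as CPM, read counts per 1000000 reads after TMM scaling, which corrects library totals for differences in composition. They are not divided by transcript length, so the CPM of different genes are not compared.

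Of all tested genes, 45.0% passed the threshold, 23.1% higher and 21.9% lower at 1% O2. With 2 of the 4 genes past it, 1 in each direction, these genes passed about as often as the table as a whole. Control and 1% O2 libraries did not overlap in CPM for 3 of the 4 genes, against 55.5% of tested genes. For 2 of the 3 the 1% O2 libraries were the higher ones, against 28.2% of tested genes, and for 1 the lower ones, against 27.4%. Arnt, among these 3, overlapped between the groups when no scaling factors were used. The median log2 fold change of the 4 was 0.10, against 0.0025 over all tested genes, and the median size of change was 0.31 against 0.23.

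**Figure D1:**
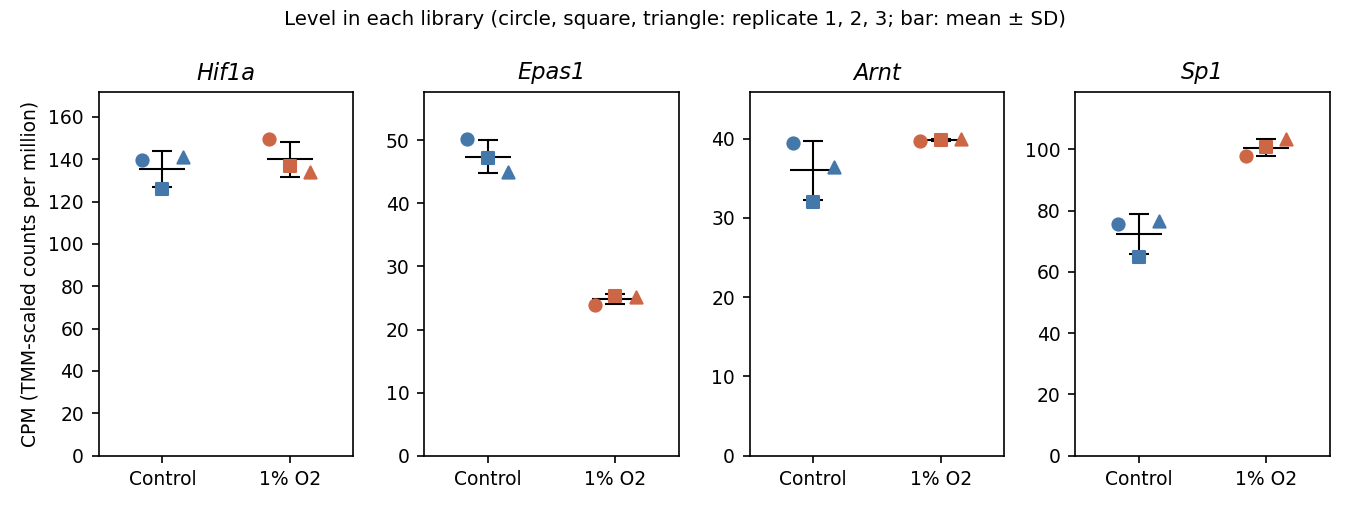
CPM of Hif1a, Epas1, Arnt and Sp1 in each of the 6 libraries (vertical axes from 0 and separate for each gene; points, libraries; bars, mean ± SD, n = 3). Epas1 is lower in all 3 libraries at 1% O2 (23.9 to 25.4 CPM) than in all 3 controls (44.9 to 50.1 CPM), Sp1 is higher in all 3 (97.8 to 103 against 65.0 to 76.5 CPM), and the Hif1a values overlap.

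Among the alpha subunits, Hif1a stood at 139.8, 126 and 141 CPM in Control replicates 1, 2 and 3 and at 149, 137 and 134 CPM in the 1% O2 replicates. The groups overlapped, and the highest and the lowest values, 149 and 126 CPM, were Hypoxia replicate 1 and Control replicate 2. The means were 136 ± 8.41 and 140.0 ± 8.24 CPM (SD, n = 3 each). The log2 fold change was 0.05 ± 0.06 (SE), and edgeR gave an adjusted p of 0.513. The 95% interval from this fit ran from 0.95-fold to 1.13-fold, so a rise or fall of the size seen for Sp1 or Epas1 lies outside it.

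The sign of the Hif1a difference depended on the scaling and on single libraries. Without scaling factors, Hif1a made up 139.6 ± 8.24 of every 1000000 assigned reads in controls and 136 ± 8.11 at 1% O2 (SD, n = 3 each), a log2 fold change of -0.04. Library totals in place of TMM lowered the median log2 fold change of all tested genes from 0.0025 to -0.086, which is larger than the Hif1a difference itself. The log2 fold change was 0.0005 without Control replicate 2 and -0.0025 without Hypoxia replicate 1. No direction of change is therefore given for Hif1a.

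Epas1, the gene of the other alpha subunit, known from endothelial cells and from the control of erythropoietin, was sequenced to 684, 648 and 618 reads in the control libraries and to 430, 369 and 362 reads in the deeper 1% O2 libraries. In CPM these were 50.1, 47.2 and 44.9 in controls and 23.9, 25.4 and 25.2 at 1% O2. Every 1% O2 library lay far below every control, and the gap between the groups was larger than the range within either. The means were 47.4 ± 2.61 and 24.8 ± 0.779 CPM (SD, n = 3 each). The log2 fold change was -0.93 ± 0.07 (SE), and edgeR gave an adjusted p of 7.52e-08. The 95% interval ran from 0.474-fold to 0.578-fold of the control level. In bulk RNA, fewer cells that express a gene and less of its RNA per cell cannot be told apart.

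Few genes of the table fell as far as Epas1. Of the 12702 tested genes, 297 (2.34%) had a lower log2 fold change, and 5.68% had a larger change in either direction. Without Control replicate 2 the log2 fold change was -0.94, so the fall is as large without the library that stood apart.

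Arnt, the shared beta subunit, stood at 39.5, 32.1 and 36.4 CPM in controls and at 39.7, 39.9 and 39.9 CPM at 1% O2. The 1% O2 libraries lay close together just above the highest control, so the groups did not overlap in CPM, but the nearest values, 39.5 and 39.7 CPM, nearly touched. The means were 36.0 ± 3.74 and 39.8 ± 0.106 CPM (SD, n = 3 each). The log2 fold change of 0.15 ± 0.07 (SE) did not pass the test (edgeR, adjusted p of 0.124). Its 95% interval ran from 0.991-fold to 1.23-fold.

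The Arnt estimate turned on the scaling and on single controls. With library totals in place of TMM it was 0.06, the lowest of 15 alternatives. It was 0.07 without Control replicate 2, the lowest library, and 0.22 without Control replicate 1, the highest control. In the latter case alone it passed the threshold, with an adjusted p of 0.0350 by edgeR, where the range over all 15 alternatives was 0.0350 to 0.544.

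Sp1 was sequenced to 1033, 892 and 1052 reads in controls and to 1757, 1464 and 1483 reads at 1% O2. The CPM were 75.7, 65.0 and 76.5 in controls and 97.8, 101 and 103 at 1% O2. All 3 libraries at 1% O2 were above all 3 controls, and the gap between the groups was larger than the range within either. The means were 72.4 ± 6.42 and 101 ± 2.71 CPM (SD, n = 3 each). The log2 fold change was 0.47 ± 0.06 (SE), and edgeR gave an adjusted p of 3.2e-05. The 95% interval ran from 1.27-fold to 1.52-fold.

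The Sp1 rise was close to the median log2 fold change of 0.42 among the 2932 genes that passed the threshold and were higher at 1% O2. Of the tested genes, 1401 (11.0%) rose more in the estimate. Control replicate 2, the lowest Sp1 value of the 6, added to the difference, which was 0.40 on the log2 scale without it, with an adjusted p of 1.93e-08 by edgeR. Over 15 alternatives, which include DESeq2 and limma-voom, the adjusted p lay between 5.24e-10 and 0.000642. Both ends came from edgeR, the lowest with no low-count filter and the highest without Hypoxia replicate 3. With library totals in place of TMM the log2 fold change was 0.39.

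**Figure D2:**
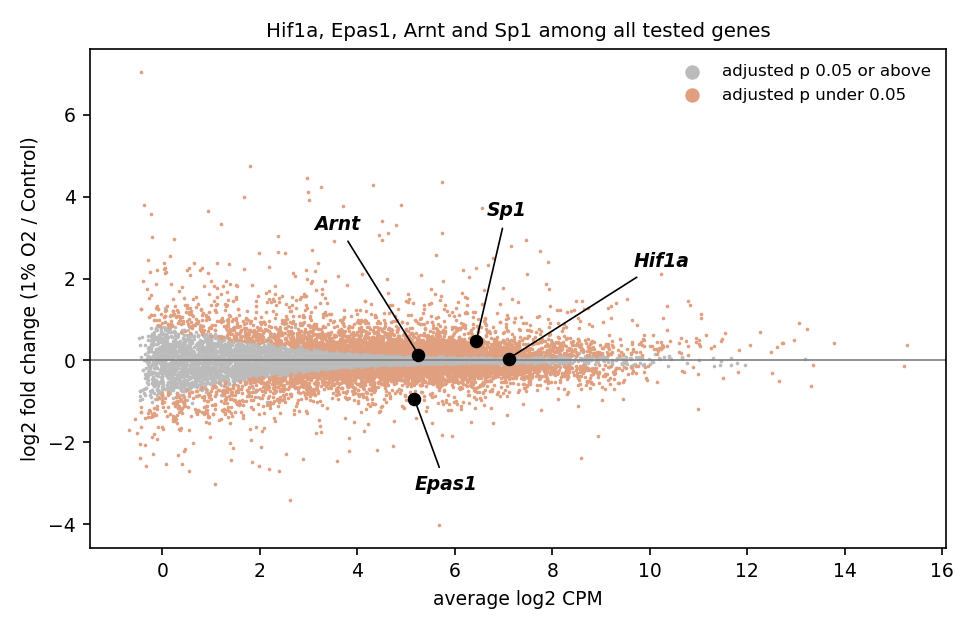
Log2 fold change (1% O2 over Control) against average log2 CPM for the 12702 tested genes (small points; coloured where the adjusted p was under 0.05), with Hif1a, Epas1, Arnt and Sp1 as large black points. Epas1 at -0.93 lies below most genes and Sp1 at 0.47 among the higher genes, while Arnt at 0.15 and Hif1a at 0.05 lie near 0.

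Ratios of the counts of 2 genes within a library involve neither scaling factors nor, when compared between groups, transcript length. All 6 pairs were compared by the exact two-sided permutation test over libraries, whose smallest possible p for 3 against 3 is 0.1, so that none could pass 0.05. Each pair whose groups did not overlap had an exact permutation p = 0.1, and p = 0.12 after Benjamini-Hochberg adjustment over the 6 pairs. The pairs share genes and are not independent. Every pair except Hif1a/Arnt includes Epas1 or Sp1, so these ratios in part restate the Epas1 fall and the Sp1 rise. How often other gene pairs of the table separate was not tested. Among single tested genes, the CPM of the groups did not overlap for 55.5%.

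The ratio between the alpha subunit transcripts was separated between the groups. There were 2.79, 2.67 and 3.14 Hif1a reads for each Epas1 read in the control libraries, and 6.24, 5.40 and 5.31 at 1% O2. The lowest ratio at 1% O2 was above the highest control ratio. The log2 ratio was 0.98 ± 0.10 (SE) higher at 1% O2, or 1.97-fold. The Epas1 count was also lower against that of its partner Arnt. For each Arnt read there were 1.27, 1.47 and 1.23 Epas1 reads in controls and 0.603, 0.636 and 0.632 at 1% O2, a log2 difference of -1.08 ± 0.08 (SE).

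The ratio of Hif1a to Arnt was not separated between the groups. It was 3.54, 3.93 and 3.87 in controls and 3.76, 3.43 and 3.35 at 1% O2, a log2 difference of -0.10 ± 0.07 (SE; exact permutation p = 0.2, adjusted p = 0.2). This is the pair whose groups overlapped.

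Against Sp1, the counts of the HIF subunits were all relatively lower at 1% O2. Epas1 reads per Sp1 read were 0.662, 0.726 and 0.587 in controls and 0.245, 0.252 and 0.244 at 1% O2. This was the largest difference among the 6 pairs, at -1.41 ± 0.09 (SE) on the log2 scale, or 2.66-fold lower. For Hif1a per Sp1 the ratios were 1.85, 1.94 and 1.84 in controls and 1.53, 1.36 and 1.30 at 1% O2, a log2 difference of -0.43 ± 0.07 (SE). For Arnt per Sp1 they were 0.522, 0.493 and 0.476 in controls and 0.406, 0.396 and 0.386 at 1% O2, a log2 difference of -0.33 ± 0.04 (SE). Among controls, where replicate 2 was low in CPM for Hif1a, Arnt and Sp1 but not for Epas1, the coefficient of variation was 2.82% for Hif1a per Sp1 and 4.63% for Arnt per Sp1. It was 10.6% for Epas1 per Sp1. For the CPM themselves it was 6.21% for Hif1a, 10.4% for Arnt, 8.87% for Sp1 and 5.51% for Epas1. With Control replicate 2 included, the ratio to Sp1 thus varied less than the CPM for Hif1a and Arnt and more for Epas1. For Arnt this order rests on that library. Control replicates 1 and 3 stood at 39.5 and 36.4 CPM for Arnt and at 0.522 and 0.476 Arnt reads per Sp1 read. Coefficients of variation without Control replicate 2 were not computed.

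**Figure D3:**
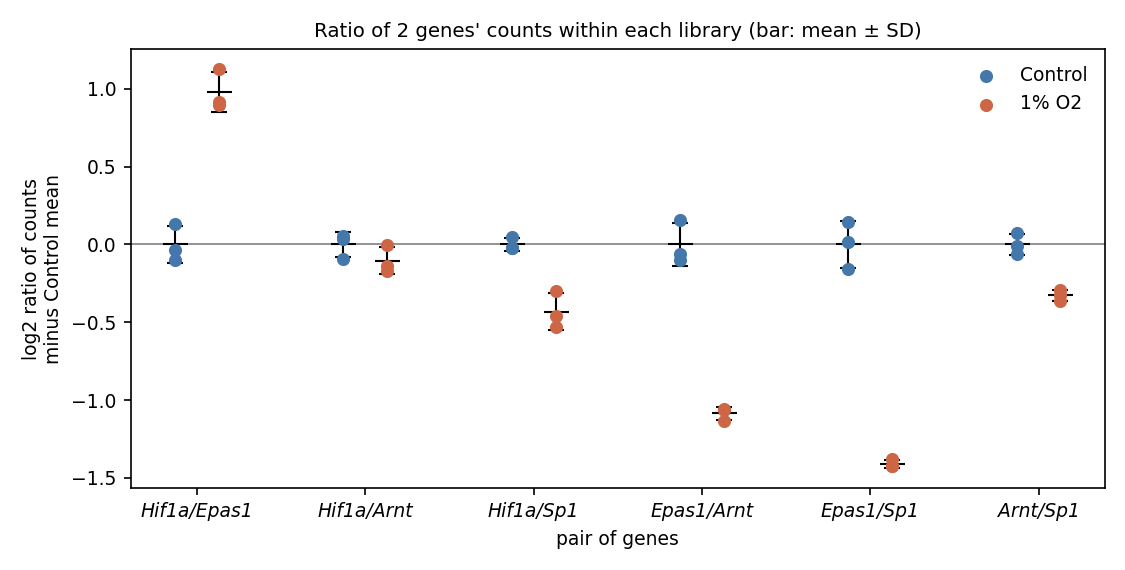
Log2 ratio of the counts of 2 genes within each library, minus the mean of the control libraries, for all 6 pairs (points, libraries; bars, mean ± SD, n = 3). Control and 1% O2 libraries are separated in every pair except Hif1a/Arnt, the only pair without Epas1 or Sp1. The difference is largest for Epas1/Sp1 at -1.41.

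To show the promoter sequences behind the transcripts that changed and behind the alpha subunit gene that did not pass the test, the 250 bases before the annotated start were read from RefSeq promoters of build GRCr8 for Epas1, Sp1 and Hif1a. All 4 genes matched an entry by symbol. The counts were made on rn6, so these positions belong to GRCr8 alone. Capitals mark matches on either strand to the core of a GC box, searched as GGGCGG, and to the core of the hypoxia response element that HIFs bind. The latter was searched as ACGTG with an A in first place and also, with a G there, as GCGTG. Epas1 lies at chr6:13624730-13624979 on the minus strand, Sp1 at chr7:135419800-135420049 on the plus strand and Hif1a at chr6:98359648-98359897 on the plus strand.
Epas1: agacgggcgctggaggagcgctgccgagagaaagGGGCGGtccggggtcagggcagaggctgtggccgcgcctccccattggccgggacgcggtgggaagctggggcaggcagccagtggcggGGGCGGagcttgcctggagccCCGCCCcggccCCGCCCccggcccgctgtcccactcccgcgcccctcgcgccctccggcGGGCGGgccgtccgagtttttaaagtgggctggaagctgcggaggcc
Sp1: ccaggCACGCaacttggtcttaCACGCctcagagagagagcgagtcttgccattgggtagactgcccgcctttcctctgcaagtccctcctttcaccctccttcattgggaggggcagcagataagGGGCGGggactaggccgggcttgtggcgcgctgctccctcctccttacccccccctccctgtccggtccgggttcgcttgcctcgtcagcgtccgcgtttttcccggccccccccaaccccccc
Hif1a: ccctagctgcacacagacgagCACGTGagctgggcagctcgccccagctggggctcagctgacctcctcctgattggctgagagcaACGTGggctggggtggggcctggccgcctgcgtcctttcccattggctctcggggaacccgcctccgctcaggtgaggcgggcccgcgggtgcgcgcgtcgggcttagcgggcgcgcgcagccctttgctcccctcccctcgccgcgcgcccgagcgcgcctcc

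The Epas1 window held 5 matches to GGGCGG and 0 to either HIF core. Of the 33469 promoter windows of this length, 1.72% held 5 or more matches to GGGCGG. The Sp1 window held 1 match to GGGCGG, a motif found at least once in 30.5% of windows, and 2 to GCGTG, both on the strand opposite to the gene. The Hif1a window held 3 matches to ACGTG, of which 2 overlap, 1 on each strand, and 0 to the GC box core. The first HIF core, ACGTG, was present in 16.6% of windows, and the second, GCGTG, in 25.9%. As many matches as in the Hif1a window, 3 or more to the first core, were found in 1.26% of windows, and 2 or more to the second, as in the Sp1 window, in 8.12%. With matches to either core counted together, 6.21% of windows held 3 or more and 16.0% held 2 or more. The Arnt window held 1 match to GCGTG and 0 to the other motifs. The windows of Epas1, Sp1, Hif1a and Arnt were 76.8%, 65.6%, 73.6% and 57.6% G and C, against a median of 51.2%, which goes with more chance matches to GC-rich letters. These are matches of letters, and no binding or accessibility was measured here.

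Genes with profiles most like those of the 4 were sought among the 11351 tested genes whose average log2 CPM was 1 or more, by the root mean square difference in log2 CPM over the 6 libraries, each gene centred on its own mean. For Epas1 the nearest was ENSRNOG00000036960, at 0.015 log2 units, with a log2 fold change of -0.93. For Sp1 it was ENSRNOG00000007472, at 0.011, with a log2 fold change of 0.47. The nearest to Hif1a and to Arnt were ENSRNOG00000012775, at 0.020, and ENSRNOG00000010999, at 0.025, and neither passed the test. Profiles like that of Epas1 were rarer than the others. Within 0.1 log2 units lay 51 genes for Epas1, 530 for Sp1, 1317 for Arnt and 1679 for Hif1a. The difference between the groups enters this distance, so these counts in part restate the size of each gene's change. Among the 4 genes themselves, Hif1a and Arnt were the most alike, at 0.086, and Epas1 and Sp1 the least, at 0.71.

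**Figure D4:**
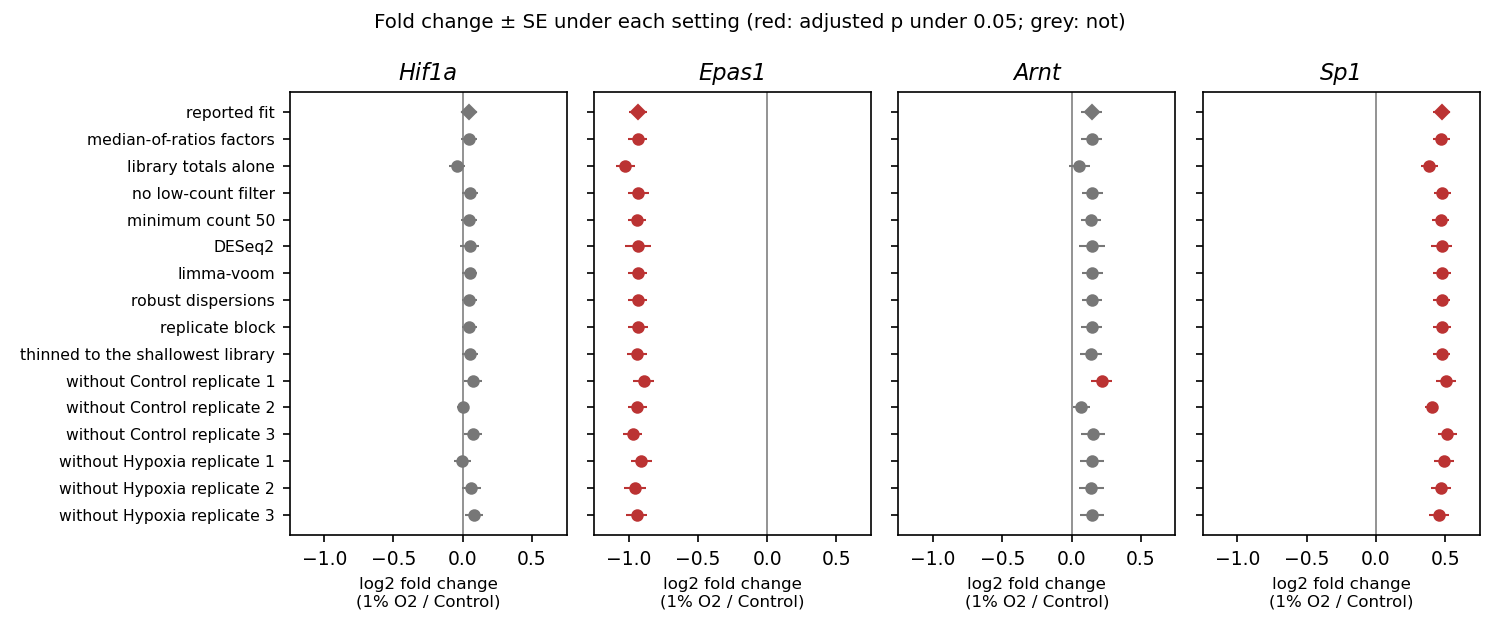
Log2 fold change ± SE of each gene in the reported fit (diamond) and under 15 alternatives (circles; red, adjusted p under 0.05; grey, at or above it). Epas1 stays between -1.02 and -0.89 and Sp1 between 0.39 and 0.52, all past the threshold, while Hif1a lies on both sides of 0 and Arnt passes only without Control replicate 1.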

How the data were processed

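The authors deposited raw counts of reads for each Ensembl gene ID, with 1 column per library. HISAT2, featureCounts, DESeq2 and the rat build rn6 are named, without roles or versions, per the submitters' processing notes. Libraries came from a stranded mRNA kit, per the labels' protocols. No source used here gives the annotation release or whether strand was used in counting, so reads of overlapping or antisense genes may be included in a count. Library names in the labels matched the columns, and 0 columns belonged to other samples.

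Counts were filtered by filterByExpr (minimum count 10, minimum total 15), scaled by TMM and tested with the edgeR 4.0.16 quasi-likelihood test in R 4.3.3, with group as the only term. The fit was also run on counts simulated from its own mean levels and dispersions. That simulation held no library that stood apart, as Control replicate 2 did, and no result given here rests on it. The SE was taken as the log2 fold change over the square root of the F statistic, without sign. Its 95% interval uses the test's 13.7 degrees of freedom, of which 4 are residual. Log2 CPM had a prior count of 2. Chi-squares between libraries used genes with 20 or more reads over both. Alternatives used DESeq2 1.42.0 and limma 3.58.1 among others. Ratios were tested in scipy 1.17.1.

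The genes, comparisons and alternatives were chosen with earlier results of these data known. The text names the 4 genes and, for each, the gene nearest in profile. Lists of other HIF pathway genes, SP factors and cell type markers were planned but not run, because IDs could not be paired with symbols.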

Additional observations from a re-analysis of the deposited data

How the results depend on the processing

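Over 15 alternatives (other scaling, low-count filters, tools, dispersions, thinning to equal depth, the replicate block and leaving out each library), Epas1 and Sp1 kept their direction and stayed past the threshold. Their log2 fold changes were -1.02 to -0.89 and 0.39 to 0.52. Leaving out 1 library gave -0.97 to -0.89 for Epas1, 0.40 to 0.52 for Sp1, 0.070 to 0.22 for Arnt and -0.0025 to 0.082 for Hif1a. Hif1a changed sign with library totals alone (-0.040) and without Hypoxia replicate 1 (-0.0025), never past the threshold. The first follows from the lower median of all genes under that scaling, and the cause of the second was not tested. Arnt passed the threshold only without Control replicate 1 (0.22), and its estimate was lowest with library totals alone (0.057). The number of changed genes, 5718 in the reported fit, was 4406 to 6071. With library totals alone 34.3% of changed genes were higher, in place of 51.3%. The replicate block gave log2 fold changes of 0.05 for Hif1a, -0.93 for Epas1, 0.15 for Arnt and 0.48 for Sp1, with 5295 changed genes, and changed no call of the 4. The labels state no pairing, and deviations of same-numbered libraries correlated at -0.044, -0.051 and 0.005, so no pairing was assumed. All 6 count ratios kept their direction in 8 alternatives each, none of which could pass 0.05. Among these, the replicate block returns the same mean difference by arithmetic, and 0.5 added to counts of this size hardly moves it. Only leaving out a library could therefore have changed a direction. Depth limits the precision least for Hif1a, where counting alone gives an SE of 0.026, and most for Epas1, where it gives 0.053 against a fitted SE of 0.066.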

Other observations

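The spread of the 4 transcripts among replicates was set beside what counting alone gives. In controls, with Control replicate 2 included, the SD of the CPM was 2.67 times the counting SD for Hif1a and 2.30 times for Arnt. For Sp1 it was 2.79 times and for Epas1 1.40 times. At 1% O2 it was 2.73 times for Hif1a, 1.06 times for Sp1, 0.615 times for Epas1 and 0.066 times for Arnt. The Arnt values at 1% O2 (39.7, 39.9 and 39.9 CPM, from 713, 580 and 573 reads) thus lay closer together than counting error alone would usually leave 3 libraries. Their SD should not be read as the precision of that mean. An SD from 3 libraries is itself imprecise, and the differences between these ratios were not tested. The control ratios of Hif1a and Sp1 turn on Control replicate 2. Control replicates 1 and 3 stood at 139.8 and 141 CPM for Hif1a and at 75.7 and 76.5 CPM for Sp1. For Epas1 they stood at 50.1 and 44.9 CPM and for Arnt at 39.5 and 36.4 CPM. Ratios without Control replicate 2 were not computed, so no order of the genes in controls is drawn.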
